A study of Mus musculus with 2 samples.

Results

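The cadherins and protocadherins are the adhesion genes whose symbol in the deposited table starts with Cdh and a digit or with Pcdh. The table listed 83 of them among 15953 genes, and 72 of the 83 reached 1 CPM (1 read per 1000000 reads counted) in at least 1 library, as did 12618 genes in all. Total RNA came from neural stem cells of mice, self-renewing progenitors of neurons and glia, all grown in suspension culture. There was 1 library labelled Hikeshi cKO, from conditional knockout mice, and 1 library labelled wild type (WT). Hikeshi encodes a carrier of HSP70 chaperones into the nucleus. Not given in the sources used here were strain, age and sex of the mice, the Cre driver, the excised part of the gene and the number of animals or cultures per library.

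Cadherins are membrane proteins whose extracellular repeats bind calcium and join neighbouring cells. Classical cadherins of type I and type II bind mainly their own kind across the cell contact, and their tails hold catenins, which couple the contact to actin. In the embryonic brain N-cadherin (Cdh2) holds progenitors together at the ventricular surface. Clustered protocadherins are made from 3 neighbouring gene clusters, alpha, beta and gamma, in which each cell uses a few promoters and so carries its own surface code. In the alpha and gamma clusters every variable exon is spliced to constant exons shared by the whole cluster. Non-clustered protocadherins of the delta-1 and delta-2 groups are separate genes, several of which recruit actin regulators.

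The libraries were of like depth, with 18912683 reads (cKO) and 18839079 reads (WT). With 1 library per genotype there were no replicates, so the genotype could not be tested and the text holds no p-value. Each ratio of CPM, cKO over WT, carries a 95% interval that covers the counting error of these libraries only. Hikeshi itself had 640 reads in the cKO-labelled library, against 718 in the WT-labelled one, so its level does not check the labels. The sum of 4 genes of the Y chromosome was 2931 reads in the cKO-labelled library, against 1 in the WT-labelled one, and this difference runs together with the genotype labels. All 8 neural stem cell markers were kept, of which 1 was at least 1.5-fold higher (Vim, reads 86583 in cKO, 51167 in WT) and 2 lower (Sox9, 2725 in cKO, 4512 in WT; Fabp7, 24346 in cKO, 36673 in WT), with a median difference of -0.16 on the log2 scale of CPM + 1. Their summed level was 7287 CPM (cKO) and 5985 CPM (WT), and Vim had the most reads in both. Oligodendrocyte lineage markers summed to 233 CPM (cKO) against 1126 CPM (WT), where 8 of 9 kept markers were at least 1.5-fold lower in the cKO-labelled library and Bmp4 at 0 reads there. Bmp4, Enpp6 and Mag reached 1 CPM in the WT-labelled library only, so the filter fixed their direction. Astrocyte markers summed to 2315 CPM (cKO) against 4602 CPM (WT) (8 of 8 at least 1.5-fold lower), and neuronal markers to 583 CPM (cKO) against 708 CPM (WT) (2 of 8 at least 1.5-fold higher, 2 lower). Of all kept genes 4.22% were at least 1.5-fold higher in the cKO-labelled library and 10.2% at least 1.5-fold lower. In bulk RNA fewer cells of a type and less RNA per cell cannot be told apart, and the part of these cell types in the values below was not tested.

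Promoters are shown for the 4 non-clustered protocadherin genes at least 1.5-fold apart that the RefSeq promoter table holds (GRCm38.p6, 250 bases before to 50 after the start), because these genes lay far from equal levels and in opposite directions. Capitals mark matches, on either strand, to the heat shock element (GAANNTTC or TTCNNGAA), the hypoxia response core (ACGTG or GCGTG), the RBPJ core of NOTCH signalling (TGGGAA) and the box TATAAA.
Pcdh18 (chr3:49757267-49757566, minus strand): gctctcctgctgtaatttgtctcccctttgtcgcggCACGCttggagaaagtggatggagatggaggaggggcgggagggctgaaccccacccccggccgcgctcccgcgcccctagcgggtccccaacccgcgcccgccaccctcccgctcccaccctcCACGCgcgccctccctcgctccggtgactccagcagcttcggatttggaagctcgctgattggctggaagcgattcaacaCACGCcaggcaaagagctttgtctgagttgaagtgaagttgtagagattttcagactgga
Pcdh20 (chr14:88471347-88471646, minus strand): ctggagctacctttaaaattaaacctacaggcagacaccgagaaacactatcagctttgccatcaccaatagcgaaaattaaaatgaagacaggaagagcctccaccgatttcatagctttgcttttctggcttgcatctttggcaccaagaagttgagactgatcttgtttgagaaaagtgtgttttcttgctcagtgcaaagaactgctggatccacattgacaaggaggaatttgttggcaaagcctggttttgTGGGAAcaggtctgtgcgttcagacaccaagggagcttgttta
Pcdh8 (chr14:79771263-79771562, minus strand): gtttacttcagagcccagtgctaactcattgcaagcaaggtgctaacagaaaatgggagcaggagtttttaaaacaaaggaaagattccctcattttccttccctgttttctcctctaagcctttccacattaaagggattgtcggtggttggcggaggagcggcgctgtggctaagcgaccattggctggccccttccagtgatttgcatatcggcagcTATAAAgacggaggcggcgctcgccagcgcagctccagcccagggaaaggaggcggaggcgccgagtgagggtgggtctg
Pcdh7 (chr5:57717831-57718130, plus strand): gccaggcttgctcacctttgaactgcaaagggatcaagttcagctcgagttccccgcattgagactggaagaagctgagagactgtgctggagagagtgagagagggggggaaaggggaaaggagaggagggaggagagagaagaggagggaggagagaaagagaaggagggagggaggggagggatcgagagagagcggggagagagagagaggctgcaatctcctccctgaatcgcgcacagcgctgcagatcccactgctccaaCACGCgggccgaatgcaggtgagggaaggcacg

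In these windows Pcdh18 held 3 matches to the hypoxia response core, which begin at positions -214, -90 and -10, and Pcdh7 held 1, beginning at position 18. Position 1 is the first base transcribed from the start used. For Pcdh7 and Pcdh18 that start lies inside the gene limits given below and not at their outer end. Pcdh20 held 1 RBPJ core at position 8, and Pcdh8 held TATAAA at position -30. A match describes the letters and is not a site of binding. None of the 4 windows held the heat shock element. Of 32851 promoters of the same length, 43.8% held the hypoxia core, 25.6% the RBPJ core, 15.1% the heat shock element and 13.6% TATAAA. Among the 19 promoters listed for 18 of the 83 genes, 11 held the hypoxia core, 5 the RBPJ core, 3 the heat shock element and 2 TATAAA. The GC content was 63.0% for Pcdh18, 43.7% for Pcdh20, 54.3% for Pcdh8 and 59.3% for Pcdh7.

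Protocadherins were lower in the cKO-labelled library in most members, while classical cadherins lay close to equal. Together the 83 genes took 54900 reads in the cKO-labelled library, against 64108 in the WT-labelled one, a ratio of 0.853 (0.843 to 0.863). Clustered protocadherins had a ratio of 0.80 (0.788 to 0.812), non-clustered protocadherins of 0.76 (0.739 to 0.782) and classical cadherins of 0.936 (0.914 to 0.959). On the log2 scale of CPM with 1 CPM added, the median difference was -0.46 for 51 clustered protocadherins, -0.46 for 11 non-clustered ones and -0.09 for 9 classical cadherins. All kept genes had a median of -0.02.

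Of the 72 kept members, 60 were lower in the cKO-labelled library by any amount, against 52.2% of all kept genes. At least 1.5-fold lower were 22 of the 72, where 10.2% of all kept genes were. At least 2-fold lower were 9, where 3.85% of all kept genes were. Pcdh20, Pcdha5, Pcdha7, Pcdha8, Pcdhb2 and Pcdhb13 reached 1 CPM in the WT-labelled library only, so the filter fixed their direction. All of them but Pcdhb13 were among the 22, and Pcdh20, Pcdha5 and Pcdha7 were among the 9. At least 1.5-fold higher were 2 members, next to 4.22% of all kept genes, and at least 2-fold higher was 1, next to 1.25%. Genes of modest level leaned lower in general. Among kept genes of at most 50 CPM in the higher library 56.8% were lower by any amount and 13.4% at least 1.5-fold lower, and of the 56 members in that range 47 and 19 were. By class, 18 of 51 clustered and 4 of 11 non-clustered protocadherins were at least 1.5-fold lower, and 0 of 9 classical cadherins were. Of the 18, 7 were alpha and 8 gamma genes, whose isoforms share reads within their cluster and are not independent. Without these clusters 7 of 42 kept members were at least 1.5-fold lower, next to 10.2% of all kept genes. Pcdh20 and Pcdhb2, whose direction the filter fixed, were among these 7. The difference between the classes was not tested, since each rests on the same pair of libraries.

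**Figure D1:**
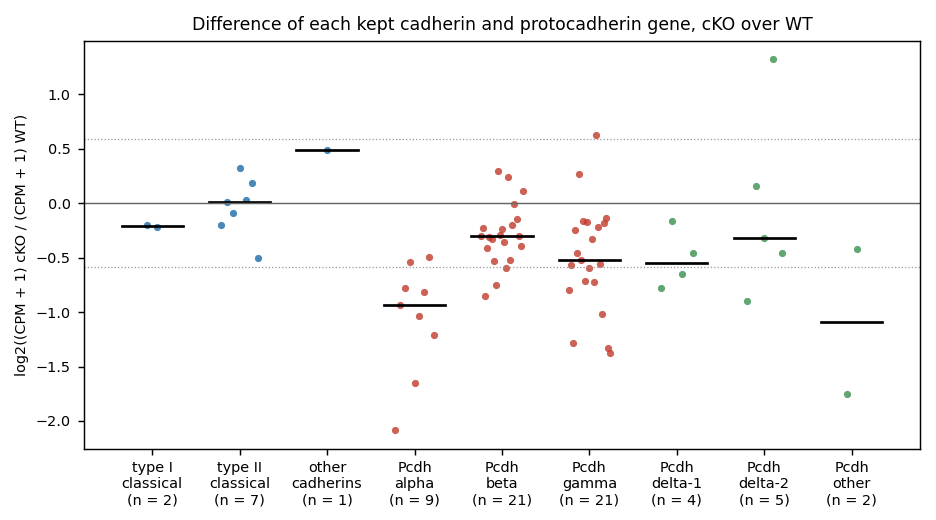
Each point is 1 kept gene, placed by its class and by the log2 difference of CPM + 1, cKO over WT. Black bars are class medians and dotted lines mark 1.5-fold. The alpha cluster lies wholly below 0, with a median of -0.94, and the classical cadherins lie within the dotted lines.

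Of the reads of the 83 genes, classical cadherins held 23.1% (22.8 to 23.5) in the cKO-labelled library, against 21.0% (20.7 to 21.4) in the WT-labelled one, with exact binomial (Clopper-Pearson) intervals. Clustered protocadherins held 52.9% (52.5 to 53.3) in the cKO-labelled library, against 56.4% (56.0 to 56.8) in the WT-labelled one, and non-clustered ones 15.5% (15.2 to 15.8) in the cKO-labelled library, against 17.3% (17.0 to 17.6) in the WT-labelled one. Outside these, Cdh13 alone took 8.52% (8.29 to 8.76) in the cKO-labelled library, against 5.17% (5.0 to 5.35) in the WT-labelled one. A single gene, Pcdhgc3, held 32.9% (32.5 to 33.3) in the cKO-labelled library, against 31.5% (31.2 to 31.9) in the WT-labelled one, more than all classical cadherins together in either library.

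**Figure D2:**
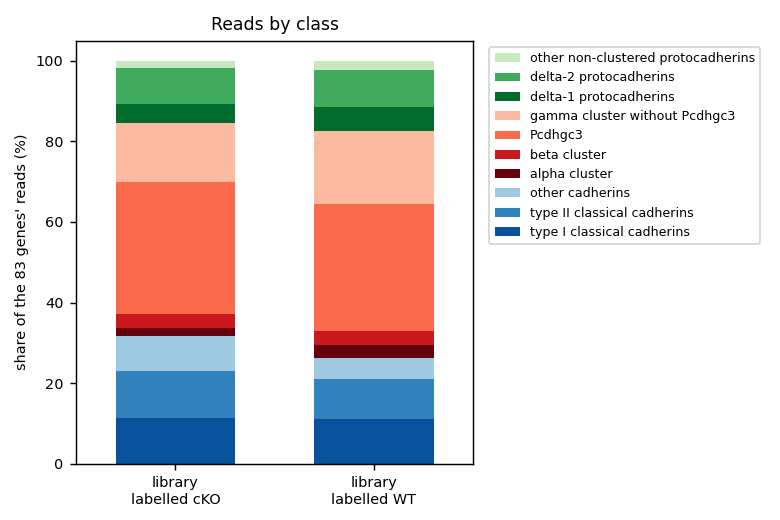
Stacked bars give the share of the reads of the 83 genes held by each class in each library, in percent, with Pcdhgc3 apart from the rest of the gamma cluster. The blue cadherin classes take 31.6% in the cKO-labelled library, against 26.2% in the WT-labelled library.

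Levels between genes were compared per length, by the deposited TPM. Pcdhgc3 stood highest in both libraries, with 355 TPM (cKO) against 397 TPM (WT), followed by Cdh13 with 113 TPM (cKO) against 80.4 TPM (WT) and Cdh2 with 67.9 TPM (cKO) against 77.7 TPM (WT). Below these the order was not the same in both libraries. Pcdh10 came next at 47.9 TPM (cKO) against 58.3 TPM (WT), then Cdh22 at 43.3 TPM (cKO) against 39.4 TPM (WT), Cdh4 at 37.9 TPM (cKO) against 43.7 TPM (WT), Cdh20 at 37.7 TPM (cKO) against 30.0 TPM (WT) and Cdh11 at 31.7 TPM (cKO) against 33.6 TPM (WT). In the cKO-labelled library Cdh22 stood above Cdh4 and Cdh20 above Cdh11, and in the WT-labelled library both pairs stood in the opposite order.

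Among type I classical cadherins only Cdh2 and Cdh4 passed the filter, and both were slightly lower in the cKO-labelled library. Cdh2, the N-cadherin of neural progenitors (chromosome 18, 16588877 to 16809246, coordinates of GRCm38.p6), took 3583 reads in the cKO-labelled library, against 4098 in the WT-labelled one, 189 CPM (cKO) against 218 CPM (WT), and was 1.15-fold lower (1.1 to 1.2). Cdh4, the R-cadherin of brain and retina (chromosome 2, 179442423 to 179899377), had 2595 reads in the cKO-labelled library, against 3010 in the WT-labelled one and was 1.16-fold lower (1.1 to 1.23). The epithelial E-cadherin gene Cdh1 had 1 (cKO) against 2 (WT) reads, the P-cadherin gene Cdh3 0 (cKO) against 3 (WT) and the muscle cadherin gene Cdh15 3 (cKO) against 2 (WT). At these counts no difference was detectable. Epithelial markers had a summed 15 reads (cKO) against 32 reads (WT) over the 5 of 9 markers in the table, Krt18 and Cldn3 at 0 in the cKO-labelled library and Cldn4 at 0 in the WT-labelled library. Most of these were reads of Epcam, 12 (cKO) against 28 (WT), which was 2.34-fold lower (1.15 to 5.06).

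Type II cadherins, which sort neurons and brain regions by adhesion, went both ways and summed to a ratio of 1.02 (0.981 to 1.05). The higher members were Cdh20, with 1632 reads in the cKO-labelled library, against 1300 in the WT-labelled one, 1.25-fold higher (1.16 to 1.35), and Cdh22, with 1662 (cKO) against 1459 (WT) reads, 1.13-fold higher (1.06 to 1.22). Cdh6, a cadherin of regional borders in the embryonic brain, was the lowest relative to WT, with 479 (cKO) against 686 (WT) reads, 1.44-fold lower (1.28 to 1.62). Cdh10 had 679 (cKO) against 778 (WT) reads and was 1.15-fold lower (1.04 to 1.28). Cdh11, a cadherin also known from mesenchyme, had 1789 (cKO) against 1903 (WT) reads, 1.07-fold lower (1.001 to 1.14), with an interval that nearly reached 1. Cdh19, a marker of Schwann cell precursors, had 164 (cKO) against 160 (WT) reads (ratio 1.02, interval 0.816 to 1.28) and Cdh24 had 94 (cKO) against 93 (WT) (ratio 1.01, interval 0.748 to 1.36), so neither differed detectably. Cdh9 was below the filter with 3 (cKO) against 0 (WT) reads.

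Cdh13, the T-cadherin, stands outside the classical types because it is held in the membrane by a lipid anchor and has no tail to bind catenins. Of the kept cadherins it had the largest fold excess, at 4677 reads in the cKO-labelled library, against 3316 in the WT-labelled one, 247 CPM (cKO) against 176 CPM (WT), 1.4-fold higher (1.34 to 1.47). With Cdh13 counted in, all cadherins together had a ratio of 1.03 (1.01 to 1.05), and without it the sum was lower in the cKO-labelled library (0.936). The other 3 genes of this class, all below the filter, were the tip link gene Cdh23 (1 in cKO, 3 in WT), the intestinal cadherin gene Cdh17 (2 in cKO, 2 in WT) and Cdh26 (0 in cKO, 3 in WT).

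**Figure D3:**
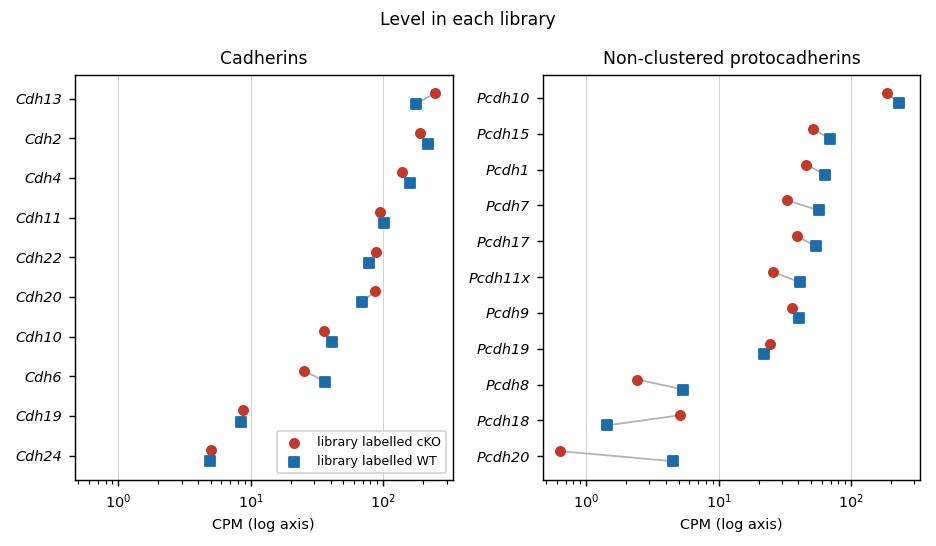
CPM of each kept cadherin and non-clustered protocadherin on a log axis, with the cKO-labelled library as a red circle and the WT-labelled library as a blue square. Cdh13 lies to the right in the cKO-labelled library, and Pcdh20, Pcdh8 and Pcdh18 show the widest gaps.

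The 4 delta-1 protocadherins, whose tails share conserved motifs, were all lower in the cKO-labelled library, with a summed ratio of 0.696 (0.662 to 0.732). Pcdh7 (chromosome 5, 57716145 to 58133236) had 623 reads in the cKO-labelled library, against 1076 in the WT-labelled one, 32.9 CPM (cKO) against 57.1 CPM (WT). It was 1.73-fold lower (1.57 to 1.92). The promoter window shown for it above lies wholly inside these gene limits, so it belongs to an internal transcript start. Pcdh11x, on the X chromosome (120290238 to 120910622), had 486 (cKO) against 769 (WT) reads, 1.59-fold lower (1.42 to 1.78). Pcdh1 had 869 (cKO) against 1196 (WT) reads, 1.38-fold lower (1.26 to 1.51), and Pcdh9 had 680 (cKO) against 761 (WT), 1.12-fold lower (1.01 to 1.25). Thus 2 of the 4 passed 1.5-fold and Pcdh9 lay nearest to equal. Over all kept genes 52.2% were lower by any amount and 10.2% at least 1.5-fold lower.

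Of the 5 delta-2 protocadherins 3 were lower and 2 higher, with a summed ratio of 0.814 (0.784 to 0.846). That count is near the 52.2% of all kept genes that were lower by any amount. Pcdh10, the most abundant of the non-clustered genes, links to the WAVE actin regulators through Nckap1, and had 3502 reads in the cKO-labelled library, against 4365 in the WT-labelled one, 1.25-fold lower (1.2 to 1.31). Pcdh17, which can recruit the same regulators, had 738 (cKO) against 1020 (WT) reads, 1.39-fold lower (1.26 to 1.53). Pcdh8, an activity-regulated protocadherin of synapses (chromosome 14, 79766772 to 79771312), had 46 (cKO) against 102 (WT) reads, 2.23-fold lower (1.56 to 3.23). Pcdh19, the gene of an epilepsy syndrome on the X chromosome, had 462 (cKO) against 411 (WT) reads (ratio 1.12, interval 0.978 to 1.28), and its interval held 1.

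Pcdh18 (chromosome 3, 49743291 to 49757383) was the 1 member at least 2-fold higher in the cKO-labelled library. It had 96 reads in the cKO-labelled library, against 27 in the WT-labelled one, 5.08 CPM (cKO) against 1.43 CPM (WT), and was 3.54-fold higher (2.29 to 5.65). In the opposite direction Pcdh20 (chromosome 14, 88464743 to 88471396) had 12 reads in the cKO-labelled library, against 85 in the WT-labelled one, 0.634 CPM (cKO) against 4.51 CPM (WT), and was 7.11-fold lower (3.87 to 14.3). Both genes stood at low levels, so their difference on the log2 scale with 1 CPM added (1.32 and -1.75) understates the ratio.

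Pcdh15, a tip link protein of the inner ear that is also made by oligodendrocyte precursors, had 970 reads in the cKO-labelled library, against 1303 in the WT-labelled one and was 1.35-fold lower (1.24 to 1.47). Markers of that lineage ranged widely on the log2 scale of CPM + 1, from -0.25 for the precursor marker Cspg4 to -6.38 for Gpr17, and Pcdh15 stood at -0.42. Pcdh12, a protocadherin of blood vessels, had 1 (cKO) against 1 (WT) read. Endothelial markers summed to 108 reads (cKO) against 77 reads (WT) over the 5 of 7 in the table, and meningeal and fibroblast markers to 332 (cKO) against 296 (WT) over 7 of 8, with Lum at 0 in the WT-labelled library. The 2 kept endothelial markers were Kdr (64 in cKO, 38 in WT) and Egfl7 (32 in cKO, 34 in WT). Of the 2 kept meningeal and fibroblast markers Foxc1 was higher (260 in cKO, 186 in WT) and Pdgfrb lower (41 in cKO, 84 in WT), the second 2.06-fold lower (1.4 to 3.07).

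**Figure D4:**
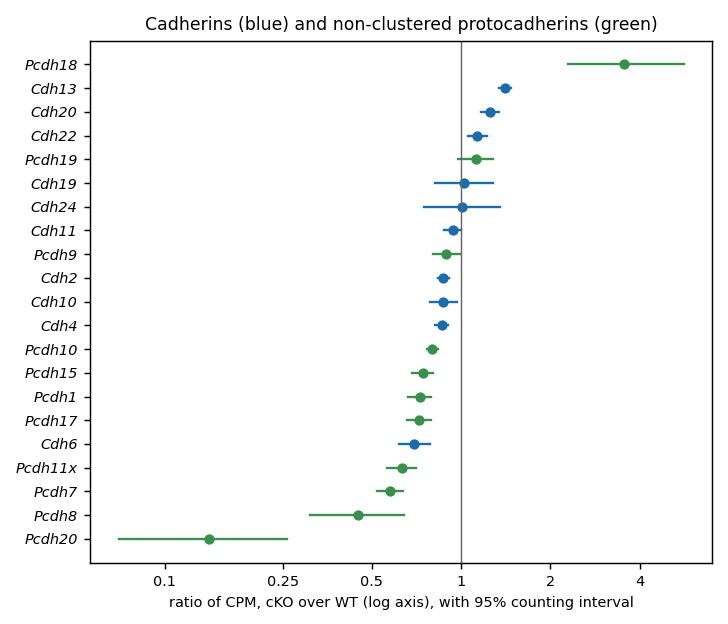
Ratio of CPM, cKO over WT, on a log axis for each kept cadherin (blue) and non-clustered protocadherin (green), with the 95% counting interval as a line. Intervals of Cdh19, Cdh24 and Pcdh19 hold 1, and Pcdh18 and Pcdh20 lie furthest from it in opposite directions.

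The clustered protocadherin genes listed lie on chromosome 18 in the order alpha, beta, gamma, with gene starts from 36930285 (Pcdha1) to 37819546 (Pcdhgc5). Deposited reads of all 12 alpha and all 21 gamma genes had decimals in at least 1 library, whereas those of all 21 beta genes were whole. How reads of the shared constant exons were divided among isoforms of the alpha and gamma clusters is a method not given in the sources used here, and values of single isoforms are less certain than the sum of their cluster. Isoforms of a cluster are not independent of each other for the same reason.

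The alpha cluster, which is made mainly by neurons, showed the largest difference of the clusters. Its 12 listed genes summed to 1154 reads in the cKO-labelled library, against 2047 in the WT-labelled one, 1.78-fold lower (1.66 to 1.92). All 9 kept members were lower in the cKO-labelled library, next to 52.2% of all kept genes. However, Pcdha5, Pcdha7 and Pcdha8 reached 1 CPM in the WT-labelled library only. For these genes the filter fixed the direction. Of the 8 kept neuronal markers, Dcx had 80 (cKO) against 824 (WT) reads, 10.3-fold lower (8.21 to 13.2), and Snap25 449 (cKO) against 775 (WT), 1.73-fold lower (1.54 to 1.95). Nefm had 470 (cKO) against 188 (WT), 2.49-fold higher (2.1 to 2.97), and Nefl 188 (cKO) against 106 (WT), 1.77-fold higher (1.39 to 2.26). The other 4 lay within 1.5-fold, and the part of neuronal cells in the alpha values was not tested. The numbered isoforms summed to 390 (cKO) against 926 (WT) reads, 2.38-fold lower (2.12 to 2.69), and the C-type isoforms Pcdhac1 and Pcdhac2 to 764 (cKO) against 1121 (WT), 1.47-fold lower (1.34 to 1.62). Pcdhac2, the isoform of serotonergic axons and the most abundant, had 682 (cKO) against 963 (WT) reads, 1.42-fold lower (1.28 to 1.57).

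Single alpha isoforms were low. Pcdha12 had 228 (cKO) against 340 (WT) reads, 1.5-fold lower (1.26 to 1.78), and Pcdhac1 82 (cKO) against 158 (WT), 1.93-fold lower (1.47 to 2.56). Pcdha11 had 60 (cKO) against 228 (WT) reads, 3.81-fold lower (2.86 to 5.16), and Pcdha10 40 (cKO) against 117 (WT), 2.94-fold lower (2.03 to 4.32). Pcdha5 had 8 (cKO) against 36 (WT) reads, 4.52-fold lower (2.06 to 11.3). Pcdha7 was listed at 0 reads in the cKO-labelled library and had 61 in the WT-labelled library. That is 20.4-fold lower with the 0 set to a floor of 3 reads, and the counting interval reaches down to 16.1-fold. Pcdha7 is the lowest member of the cluster, so the median of -0.94 is the same with it at that floor by construction. The other 2 kept genes, Pcdha8 (12 in cKO, 34 in WT) and Pcdha9 (36 in cKO, 86 in WT), were also lower and were named after their values were seen. Pcdha1, Pcdha2 and Pcdha3 were below the filter with 0 (cKO) against 3 (WT), 6 (cKO) against 15 (WT) and 0 (cKO) against 6 (WT) reads.

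Beta cluster genes are single exons and share no reads of a constant part. They summed to 1882 reads in the cKO-labelled library, against 2313 in the WT-labelled one, 1.23-fold lower (1.16 to 1.31). Of 21 kept genes 18 were lower and 3 higher, 3 of them at least 1.5-fold lower and 0 higher. At least 1.5-fold higher were 4.22% of all kept genes. All beta genes lay under 50 CPM, where 56.8% of kept genes were lower by any amount and 13.4% at least 1.5-fold lower. The count of 3 past 1.5-fold is thus near the background. The interval lay below 1 for 6 and held 1 for the other 15, so most of these genes did not differ detectably at their depth. The most abundant was Pcdhb20, with 285 (cKO) against 357 (WT) reads, 1.26-fold lower (1.07 to 1.47). Pcdhb10 had 100 (cKO) against 181 (WT), 1.82-fold lower (1.42 to 2.34), and Pcdhb11 93 (cKO) against 142 (WT), 1.53-fold lower (1.17 to 2.01). Pcdhb2, Pcdhb3 and Pcdhb13, at 15 (cKO) against 42 (WT), 32 (cKO) against 58 (WT) and 9 (cKO) against 21 (WT) reads, were the other 3 with intervals below 1, and were named after their values were seen. Pcdhb2 and Pcdhb13 reached 1 CPM in the WT-labelled library only, so the filter fixed their direction.

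The remaining beta genes that reached 5 CPM had intervals that held 1. The 2 of them above 1 were Pcdhb17, with 225 (cKO) against 187 (WT) reads (ratio 1.2, interval 0.983 to 1.46), and its neighbour Pcdhb16, with 103 (cKO) against 80 (WT) (ratio 1.28, interval 0.948 to 1.74). Below 1 were Pcdhb18 (206 in cKO, 229 in WT), Pcdhb19 (141 in cKO, 169 in WT), Pcdhb5 (136 in cKO, 170 in WT), Pcdhb22 (123 in cKO, 155 in WT) and Pcdhb14 (93 in cKO, 119 in WT). The other 8 kept beta genes had 24 to 69 reads in the cKO-labelled library and 30 to 84 in the WT-labelled library.

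The gamma cluster, known for survival of interneurons and for self-avoidance of dendrites, carried most of the clustered message, with 26015 reads in the cKO-labelled library, against 31814 in the WT-labelled one, 1.23-fold lower (1.21 to 1.25). Pcdhgc3, a C-type isoform made broadly, held the bulk of it and differed little, with 18049 (cKO) against 20204 (WT) reads, 1.12-fold lower (1.1 to 1.15). The other 20 genes summed to 7966 (cKO) against 11610 (WT) reads and were 1.46-fold lower (1.42 to 1.51). Of all 21 gamma genes 19 were lower and 2 higher, with 8 at least 1.5-fold lower and 1 higher. Among all kept genes 52.2% were lower by any amount, 10.2% at least 1.5-fold lower and 4.22% at least 1.5-fold higher. The interval lay below 1 for 17, above 1 for 2 and held 1 for 2.

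C-type gamma isoforms did not share 1 ratio. Pcdhgc4, which interneurons need to survive, had 635 (cKO) against 943 (WT) reads, 1.49-fold lower (1.35 to 1.65), and Pcdhgc5, which is known to appear late in brain development, 405 (cKO) against 835 (WT), 2.07-fold lower (1.84 to 2.34). The gamma A subfamily summed to 4719 (cKO) against 6997 (WT) reads, 1.49-fold lower (1.43 to 1.54), and gamma B to 2207 (cKO) against 2835 (WT), 1.29-fold lower (1.22 to 1.36). Ratios of single genes ran from 0.352 to 1.57 in gamma A and from 0.366 to 1.22 in gamma B, so the subfamilies overlapped.

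The gamma isoforms furthest below WT were Pcdhga8, with 127 (cKO) against 359 (WT) reads, 2.84-fold lower (2.31 to 3.5), its neighbour Pcdhgb5, with 129 (cKO) against 351 (WT), 2.73-fold lower (2.23 to 3.37), and Pcdhga11, with 464 (cKO) against 1154 (WT), 2.5-fold lower (2.24 to 2.79). Against the trend, Pcdhga10 had 520 reads in the cKO-labelled library, against 330 in the WT-labelled one, 1.57-fold higher (1.36 to 1.81), and its neighbour Pcdhgb7 390 (cKO) against 319 (WT), 1.22-fold higher (1.05 to 1.42). These adjoining genes sit directly before Pcdhga11, so genes with opposite differences lay side by side.

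Pcdhga2 had 374 (cKO) against 663 (WT) reads, 1.78-fold lower (1.57 to 2.03). Pcdhga9 had 115 (cKO) against 202 (WT), 1.76-fold lower (1.4 to 2.24). Pcdhga3 and Pcdhga7 had 673 (cKO) against 1113 (WT) and 590 (cKO) against 899 (WT) reads, ratios of 0.602 (0.547 to 0.663) and 0.654 (0.588 to 0.726). These 4 also passed 1.5-fold. Within 1.5-fold on the log2 scale but with intervals below 1 were Pcdhgb1 (312 in cKO, 470 in WT), Pcdhga5 (321 in cKO, 466 in WT), Pcdhgb6 (494 in cKO, 683 in WT), Pcdhga4 (346 in cKO, 439 in WT), Pcdhga6 (608 in cKO, 723 in WT), Pcdhgb4 (401 in cKO, 468 in WT) and Pcdhgb2 (481 in cKO, 544 in WT). Pcdhga1, with 380 (cKO) against 419 (WT) reads (ratio 0.903, interval 0.784 to 1.04), and Pcdhga12, with 201 (cKO) against 230 (WT) (ratio 0.871, interval 0.717 to 1.06), did not differ detectably.

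Along the chromosome the alpha and beta genes that lie first in their cluster tended to be lower than those that lie last. Spearman's rho between gene start and difference was 0.57 over 9 alpha genes, 0.59 over 21 beta genes and 0.0052 over 21 gamma genes. These values describe genes of the same 2 libraries, which also share reads in the alpha and gamma clusters, and carry no test. Pcdha5, Pcdha7, Pcdha8, Pcdhb2 and Pcdhb13 reached 1 CPM in the WT-labelled library only, so the filter fixed their direction. Of these, Pcdha5, Pcdha7 and Pcdha8 are the first kept alpha genes and Pcdhb2 the first kept beta gene, so the filter itself feeds the trend. Mean level and difference had rho of 0.43, 0.28 and -0.0026 in the same clusters.

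**Figure D5:**
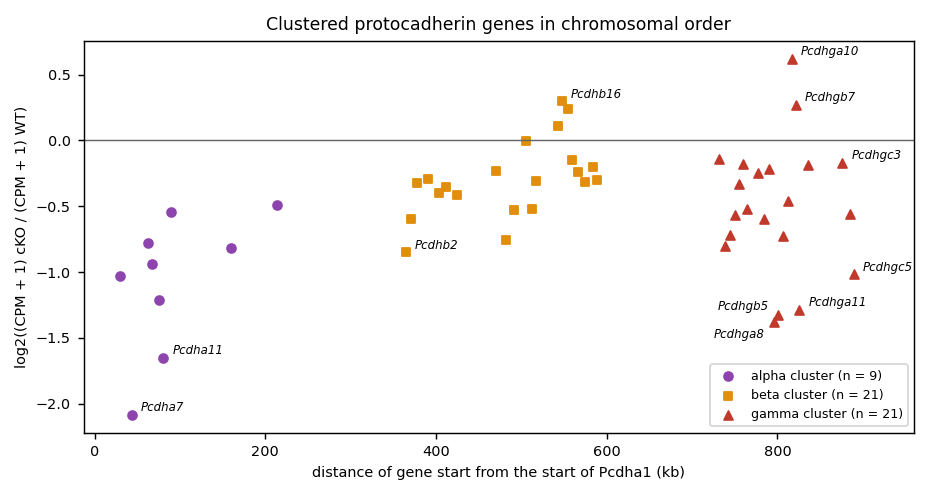
Log2 difference of CPM + 1, cKO over WT, for the 51 kept clustered genes against the distance in kb of the gene start from that of Pcdha1. All 9 alpha genes lie below 0, beta genes between -0.85 and 0.30, and in the gamma cluster Pcdhga10 and Pcdhgb7 stand above 0 next to Pcdhga11 at -1.29.

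Of 15 kept catenins and other junction partners of the cadherins 1 was at least 1.5-fold higher and 2 lower in the cKO-labelled library, close to the 4.22% and 10.2% of all kept genes, with a median of 0.01. Beta-catenin (Ctnnb1) had 19653 reads in the cKO-labelled library, against 20768 in the WT-labelled one (ratio 0.943, interval 0.924 to 0.961), the alpha-catenin gene Ctnna1 2802 (cKO) against 2712 (WT) (ratio 1.03, interval 0.976 to 1.09), and the p120 catenin gene Ctnnd1 4253 (cKO) against 4206 (WT) (ratio 1.01, interval 0.965 to 1.05). The neural forms were lower, with Ctnna2 at 797 (cKO) against 1405 (WT) reads, 1.77-fold lower (1.62 to 1.93), and Ctnnd2 at 2962 (cKO) against 3503 (WT), 1.19-fold lower (1.13 to 1.25). Ctnnal1, the alpha-catulin gene, had 258 (cKO) against 467 (WT), 1.82-fold lower (1.56 to 2.12), and plakoglobin (Jup) 505 (cKO) against 307 (WT), 1.64-fold higher (1.42 to 1.89).

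Of 14 kept genes from the rest of the cadherin superfamily 1 was at least 1.5-fold higher and 5 lower (median -0.13). Over all kept genes these shares were 4.22% and 10.2%. The giant cadherin gene Fat4 had 520 reads in the cKO-labelled library, against 324 in the WT-labelled one, 1.6-fold higher (1.39 to 1.84), while Fat1 (3964 in cKO, 3757 in WT, ratio 1.05, interval 1.005 to 1.1) and Fat3 (320 in cKO, 351 in WT, ratio 0.908, interval 0.778 to 1.06) lay near 1. Lower were the synaptic calsyntenin gene Clstn3, with 108 (cKO) against 265 (WT) reads, 2.46-fold lower (1.96 to 3.11), and the desmosome gene Dsc2, with 27 (cKO) against 75 (WT), 2.79-fold lower (1.77 to 4.5). Of the planar polarity cadherins Celsr1 had 43 (cKO) against 76 (WT) reads, 1.77-fold lower (1.21 to 2.64), Celsr3 69 (cKO) against 124 (WT), 1.8-fold lower (1.33 to 2.46), and Celsr2 875 (cKO) against 980 (WT), 1.12-fold lower (1.03 to 1.23). The fifth of the lower genes, Dchs2 (22 in cKO, 52 in WT), was named after its value was seen.

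Genes that act on the protocadherin promoters or on the proteins were also counted. CTCF, cohesin and the other regulators of the clusters had 0 of 14 genes 1.5-fold apart, where 4.22% of all kept genes were higher and 10.2% lower. Of the 14, 12 lay above 0 in the cKO-labelled library, with a median of 0.27, while 52.2% of all kept genes were lower. Ctcf itself, which loops enhancers to the chosen promoter, had 2633 reads in the cKO-labelled library, against 2406 in the WT-labelled one, 1.09-fold higher (1.03 to 1.15). Among 13 proteases that cleave cadherins 5 lay above 0 and 8 below, with 0 past 1.5-fold higher and 3 past 1.5-fold lower (median -0.08). Of all kept genes 4.22% were past 1.5-fold higher and 10.2% past 1.5-fold lower. Adam10, the main sheddase of N-cadherin, had 3921 (cKO) against 2975 (WT) reads, 1.31-fold higher (1.25 to 1.38), whereas Mmp14 had 251 (cKO) against 497 (WT), 1.99-fold lower (1.7 to 2.32), and Mmp24 306 (cKO) against 529 (WT), 1.74-fold lower (1.5 to 2.0). The other gene past 1.5-fold, Psen2 (92 in cKO, 154 in WT), was named after its value was seen.

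Of 15 cytoplasmic partners of protocadherins 5 lay above 0 and 10 below, with 0 past 1.5-fold higher and 3 past 1.5-fold lower (median -0.11). The shares past 1.5-fold over all kept genes were 4.22% higher and 10.2% lower. The kinase gene Ptk2b, whose product the clustered protocadherins hold in check, had 212 (cKO) against 552 (WT) reads, 2.61-fold lower (2.23 to 3.08), and Cyfip2 of the WAVE complex 1112 (cKO) against 2415 (WT), 2.18-fold lower (2.03 to 2.34). Nckap1, the WAVE subunit bound by Pcdh10, had 8706 (cKO) against 9402 (WT) reads, 1.08-fold lower (1.05 to 1.12). Wasf1, also of that complex, had 1408 (cKO) against 2114 (WT) and was named after its value was seen. The 4 kept repressors of Cdh1 had 0 genes 1.5-fold apart (median 0.19), where 4.22% of all kept genes were higher and 10.2% lower. With 4 genes that count cannot be told from these shares.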

How the data were processed

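Each sample's group is its genotype label, and the columns of the deposited table were tied to them by the genotype in their names. Files are on GRCm38.p6, per the submitters' processing notes. Not given in the sources used here were aligner, counter, annotation and strand setting. The authors deposited estimated counts of reads per gene, with at most 2 decimals, together with TPM, FPKM and a normalized signal, as the columns are named per the file headers. FPKM and the deposited signal were not used for any result.

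Counts were rounded to whole reads and divided by the library total to give CPM. A gene was kept at 1 CPM or more in at least 1 library. Differences are log2 of CPM + 1, cKO over WT, and folds are ratios of CPM without that addition. Calls at 1.5-fold and 2-fold were made on the log2 scale, so that a low gene can exceed a fold by its ratio and not by its difference. Intervals are exact conditional binomial (Clopper-Pearson, 95%, scipy 1.17.1). Reads were counted without molecular identifiers and are not independent molecules, so intervals and floors cover counting error only. The interval code was tested on simulated data. TMM factors came from edgeR 4.0.16 and size factors from DESeq2 1.42.0, as alternatives only, beside the deposited TPM, other pseudocounts and filters, and removal of the trend with GC content of GENCODE transcripts. Coordinates came from a RefSeq gene table of GRCm38.p6, in which all 83 gene numbers were found, and promoters from RefSeq.

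The members, the classes and the partner and marker lists were chosen with earlier results of these data known. Named were kept members of at least 5 CPM, or at least 2-fold apart with 20 reads, in the higher library, and, from the partner lists, 14 listed genes whatever their value together with the 2 furthest apart in each direction among those past 1.5-fold. Cdh24 (just under 5 CPM), members below the filter and marker genes fall outside this rule and were named after their values were seen.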

Additional observations from a re-analysis of the deposited data

How the results depend on the processing

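No paired analysis was possible because each genotype had 1 library, and for the same reason leaving out a replicate was not possible. Calls of low genes depended on the pseudocount and the scale. With 5 CPM added in place of 1, 5.34% of all kept genes were at least 1.5-fold lower and 1.53% at least 2-fold lower. The clustered protocadherins then had a median difference of -0.27, with 9 at least 1.5-fold lower, 3 at least 2-fold lower and 0 at least 1.5-fold higher. The non-clustered ones had 2 at least 1.5-fold lower and 0 at least 2-fold apart in either direction. The 72 kept members had a median of -0.24, with 11 at least 1.5-fold lower, 3 at least 2-fold lower, 1 past 1.5-fold higher and 0 past 2-fold higher. With 0.25 CPM added, 2 non-clustered genes were at least 2-fold lower, and with a filter of 5 CPM 0 were. On the deposited TPM, where 2.91% of all kept genes were at least 2-fold lower, 5 clustered genes were at least 2-fold lower, 0 clustered genes at least 1.5-fold higher, 1 of the 72 kept members past 1.5-fold higher and 0 past 2-fold higher, also among non-clustered genes. The summed ratio by TPM was 0.960 for classical cadherins, 1.06 for all cadherins and 0.875 for all 83 genes. Without the alpha and gamma clusters, 7 of the 42 kept members left were at least 1.5-fold lower, next to 10.2% of all kept genes. Of the 42, 1 was at least 2-fold lower, next to 3.85% of all kept genes, and 1 at least 1.5-fold higher, next to 4.22%. Pcdh20 and Pcdhb2 were among the 7 and Pcdh20 was the 1 past 2-fold lower. The filter fixed the direction of both genes.

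Without its most abundant gene a class had a summed ratio of 0.434 (alpha cluster), 0.683 (gamma cluster), 0.686 (clustered protocadherins), 0.857 (delta-2), 0.735 (non-clustered protocadherins), 0.151 (other non-clustered protocadherins, which leaves Pcdh20 and Pcdh12), 0.965 (classical cadherins) and 0.836 (all 83 genes). The direction turned for all cadherins (0.936) once Cdh13 was left out. The cadherins outside the classical types then stood at 0.374, which rests on a few reads of genes below the filter. These were Cdh17 (2 in cKO, 2 in WT), Cdh23 (1 in cKO, 3 in WT) and Cdh26 (0 in cKO, 3 in WT), and none differed detectably. With the trend over GC content removed, the sums were 0.896 for type I cadherins, 0.834 for the gamma cluster, 0.816 for clustered and 0.737 for non-clustered protocadherins. The causes were not tested. Of the ratios of single members, 230 values under the alternatives stayed within the counting interval and 2 did not (Cdh22 and Pcdh10 with the GC trend removed). The TMM factors (0.995 in cKO, 1.005 in WT) and size factors (0.997 in cKO, 1.003 in WT) lay close to 1. Values under these 2 alternatives could hardly leave an interval, and Pcdha7 stays at 0 under all of them, so the count is a weak check. At this depth a gene under 3 reads in both libraries shows nothing, and with 1 library per genotype the spread between cultures is not known.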
